A study of Mus musculus with 6 samples.

Results

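The MHC class I antigen presentation genes are the set of genes whose products cut cytosolic proteins into peptides, carry the peptides into the endoplasmic reticulum, load them on class I heavy chains and bring the complex to the cell surface. They were followed here across mouse embryonic stem cells (ESCs) and embryoid bodies (EBs). The 10 names B2m, H2-K1, H2-D1, H2-T23, Tap1, Tap2, Tapbp, Psmb8, Psmb9 and Nlrc5 were matched to the gene column of the expression table, and 9 of them had an entry of their own among 21639. H2-D1 was listed jointly with LOC547349, so its joint entry is given beside the members and is not counted among the 9.

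RNA-Seq was carried out on 6 libraries, 1 for each of 3 lines at 2 stages, so no value carries a replicate error. A test was possible only over all 6 libraries, with line and stage as terms, and it is given after the comparisons of single libraries. The labels give all samples as ESCs of the V6.5 background (129SvJae x C57BL/6), and the study's methods say that the transgenic lines were built in KH2 ESCs. In the H2A.Z WT line a doxycycline-inducible, YFP-tagged wild-type H2A.Z is expressed while hairpins against the 3' UTR of the endogenous gene deplete it, and in the H2A.Z AP3 line the transgene has the 3 divergent acidic patch residues replaced by those of H2A. The H2A.Z KD line carries the hairpins, and YFP-positive cells were sorted when the lines were made. D0 samples are ESCs taken off feeder cells before harvest, and D3 samples are EBs grown for 3 days without LIF.

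H2afz, which encodes H2A.Z and which the hairpins target, was listed at 279.2 RPKM (reads scaled to the transcript's length in kilobases and to the library's mapped reads) in H2A.Z WT ESCs, 342.8 in the library labelled KD and 303.5 in H2A.Z AP3 ESCs. In EBs it was listed at 258.2, 236.5 and 393.6 RPKM in the same order. The library labelled KD was thus the highest of the 3 at D0 and the lowest at D3. Transgene reads fall on the same coding exons, and the labels do not say whether this line expressed a transgene at harvest. This gene therefore does not check the label, and depletion in the library labelled KD is not shown by it. Estimated depth ranged from 16.8 to 31.2 M reads and was highest in H2A.Z AP3 ESCs. The ESC marker Pou5f1 was at 358.4 to 540.5 RPKM in the 6 libraries, while Klf4 was at 65.9 to 131.3 RPKM at D0 and 14.9 to 17.4 at D3. Of 9 ESC markers 2, 3 and 2 were past 1.5-fold lower at D3 in H2A.Z WT, KD and AP3, where 16.5%, 16.2% and 16.3% of all entries were. In H2A.Z AP3 ESCs Sox2 (109.7 against 191.1 RPKM) and Klf4 (65.9 against 121.0 RPKM) were past 1.5-fold lower than in H2A.Z WT ESCs. Fibroblast markers summed over a list of 10 were at 28.7 to 58.2 RPKM at D0 and 9.08 to 15.9 at D3, with the highest sum in H2A.Z AP3 ESCs.

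Class I molecules pair a polymorphic heavy chain with beta-2-microglobulin and present peptides to cytotoxic T cells. Peptides come from the proteasome, whose catalytic subunits are exchanged for interferon-inducible ones, and TAP transporters move them to the chaperone tapasin. Promoters of these genes are known to carry an enhanceosome module bound by RFX, CREB or ATF and NF-Y factors, on which the transactivator NLRC5 assembles, beside sites for NF-kappa B and interferon regulatory factors. ESCs are known for low surface class I, which increases with differentiation or interferon.

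The promoters were examined first, because members that share a control module could be read against one another. The RefSeq promoter table of GRCm38.p6 held 8 of the 10 promoters, each with 250 bases before and 50 after the transcription start, and their place in mm9 was found by exact match. Tap2 and Nlrc5 were not among them. The X2 box core TGACG, to which CREB and ATF factors bind, was found on either strand in 5 of the 8 promoters and in 21.0% of 27025 promoters of that length. The Y box ATTGG, the inverted CCAAT bound by NF-Y, was found in 7 of 8 and in 37.9% of all. The interferon response element core TTTCNNTT was found in 4 of 8 and in 24.2% of all, and the kappa B motif in 3 of 8 and in 8.20% of all.

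In B2m, H2-K1 and H2-D1 the X2 core was followed by the Y box after exactly 20 bases. These 3 stretches are shown because the light chain and the classical heavy chains have these letters and this spacing in common. The letters and the spacing were chosen after the member promoters had been seen. Searched on the gene's own strand, the same pair was present in 16 of 27025 promoters (0.0592%), of which 4 belong to class I genes (these 3 and H2-M3) and 12 do not, for example those of Per1, Hspa14 and Nfe2l1. With 1 mismatch allowed in each box 1040 promoters held it (3.85%), and H2-T23 was then included. Capitals mark the X2 core and the Y box, or in H2-T23 their variants with 1 mismatch each. Each sequence runs 5' to 3' on the gene's own strand.
B2m, chr2:121973345-121973374, plus strand: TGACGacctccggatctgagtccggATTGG
H2-K1, chr17:34137304-34137333, minus strand: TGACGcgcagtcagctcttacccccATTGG
H2-D1, chr17:35399938-35399967, plus strand: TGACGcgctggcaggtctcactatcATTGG
H2-T23, chr17:36169718-36169747, minus strand: TGATGcagtctcaattctcatttctGTTGG

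Upstream of that pair, the same promoters held the interferon response element core, and these windows are shown because the interferon-stimulated genes are set beside the members further on. Capitals mark the core or its reverse complement, with 6 flanking bases on each side. In H2-T23 a further match of the core overlapped the Y box variant printed above.
B2m, chr2:121973280-121973299, plus strand: acatgaAACTGAAAatggga
H2-K1, chr17:34137369-34137388, minus strand: ccacagTTTCACTTctgcac
H2-D1, chr17:35399883-35399902, plus strand: cctcagTTTCACTTctgcac
H2-T23, chr17:36169757-36169776, minus strand: tactgcTTTCTCTTtcataa

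The first 3 of these promoters also held a kappa B site, upstream of the interferon element in H2-K1 and H2-D1 and downstream of it in B2m. It is shown because the 20-base windows of H2-K1 and H2-D1 were identical. Capitals mark the site.
B2m, chr2:121973292-121973311, plus strand: aaatgGGAAAGTCCCtttgt
H2-K1, chr17:34137389-34137408, minus strand: gggctGGGGATTCCCcatct
H2-D1, chr17:35399863-35399882, plus strand: gggctGGGGATTCCCcatct

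The transporter and proteasome promoters were organised differently. Tap1 and Psmb9 are transcribed away from each other, and 275 of the 300 bases in their promoter windows were shared, so the X2 core and the Y box found in both are the same bases. Tapbp held the Y box at 2 places and no X2 core, and no match to any of the 4 motifs was found in the Psmb8 window. These are matches of letters and not sites shown to be bound.

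**Figure D1:**
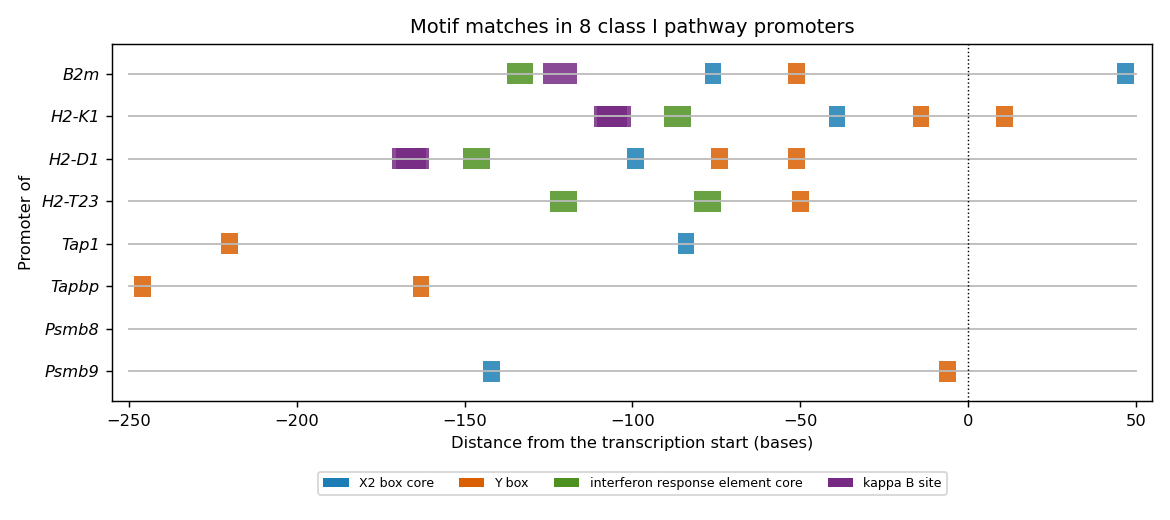
Positions of the 4 motifs, in bases from the transcription start, in the promoters of 8 class I pathway genes (grey lines span the window searched). B2m, H2-K1 and H2-D1 each have a kappa B site, an interferon response element core, an X2 box core and a Y box before the start, and Psmb8 has no match.

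Levels were set out next, in RPKM, which is per length and can be compared between genes. Taking the members by their average over the 6 libraries, B2m stood highest, followed by H2-K1 and Tapbp, then H2-T23, Psmb9 and Tap1, then Tap2 and Psmb8, with Nlrc5 last. The ranges over the 6 libraries overlapped between B2m, H2-K1 and Tapbp, between Tap1 and both H2-T23 and Psmb9, and between Tap2 and Psmb8, so the order among these does not hold beyond that spread. H2-T23 lay above Psmb9 in its whole range, at no less than 4.54 RPKM against no more than 4.30 RPKM. The lowest Tapbp value (9.96 RPKM) lay above the highest of H2-T23 (6.60 RPKM), and the lowest of Tap1 (2.80 RPKM) above the highest of Tap2 (2.18 RPKM). The highest Nlrc5 value (0.181 RPKM) lay below the lowest of Psmb8 (0.416 RPKM). The intervals quoted from here on are 95% Poisson intervals from estimated read numbers and cover counting error only, not differences between cultures. The same reads may be copies of 1 molecule, which these intervals do not account for.

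**Figure D2:**
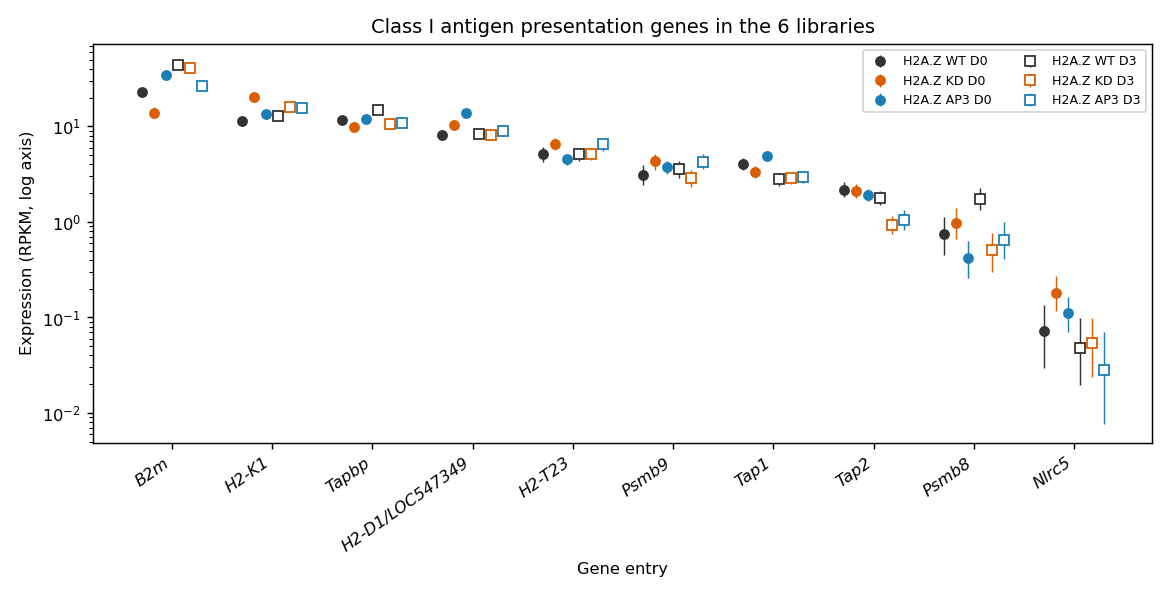
RPKM (log axis) of the 9 members and of the joint H2-D1 entry in the 6 libraries (colour, line; filled circles, D0; open squares, D3; bars, 95% counting intervals). B2m spans 13.9 to 43.9 RPKM and Nlrc5 stays at or below 0.181 RPKM.

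B2m encodes beta-2-microglobulin, the light chain that every class I molecule needs to reach the surface (chr2:121973422-121978819 in mm9, plus strand, 4 exons). In ESCs it was measured at 22.8 RPKM with H2A.Z WT, 13.9 in the library labelled KD and 34.7 with H2A.Z AP3. In EBs the values were 43.9, 40.9 and 26.2 RPKM in that order. The order of the lines was thus different at the 2 stages, with H2A.Z AP3 the highest of the 3 in ESCs and the lowest in EBs. Between 227 and 929 estimated reads stood behind each value. No 40-base stretch of the B2m transcript occurs in a protein-coding transcript of another annotated gene.

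H2-K1 encodes a classical heavy chain (chr17:34132962-34137278, minus strand). It was measured at 11.5 RPKM in H2A.Z WT ESCs, 20.1 in the library labelled KD and 13.4 with H2A.Z AP3, and at 12.9, 16.1 and 15.7 RPKM in EBs. The library labelled KD was the highest at D0, where B2m was the lowest. The ratio of B2m to H2-K1 was 0.691 in that library and 1.67 to 3.42 in the other 5. H2-K1 shares 15.1% of its 40-base stretches with other genes, most of them with H2-D1, and reads with up to 20 alignments were allowed, so values of the heavy chains are not fully separate.

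The joint entry of H2-D1, the other classical heavy chain, and LOC547349 was measured at 8.09, 10.2 and 13.7 RPKM in H2A.Z WT ESCs, the library labelled KD and H2A.Z AP3 ESCs. In EBs it was at 8.36, 8.12 and 9.003 RPKM. H2A.Z AP3 ESCs were the highest of the 6 libraries, while for B2m they were the highest of the ESC libraries. Its ratio to H2-K1 was 1.02 in that library and 0.506 to 0.705 in the other 5.

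H2-T23 encodes Qa-1, a non-classical heavy chain known to present leader peptides of other class I molecules (chr17:36166718-36169800, minus strand). It was measured at 5.10, 6.60 and 4.54 RPKM in ESCs of the H2A.Z WT, KD and AP3 lines, followed by 5.11, 5.19 and 6.48 RPKM in their EBs. No comparison between libraries passed 1.5-fold for this gene. It shares 23.4% of its 40-base stretches with other genes.

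Tapbp encodes tapasin, which holds empty heavy chains at the transporter (chr17:34052844-34066235, plus strand). It was measured at 11.7, 9.96 and 12.0 RPKM in ESCs, and in EBs the values were 14.9, 10.6 and 10.8 RPKM, in the same order of lines. Tapbp also stayed within 1.5-fold in every comparison made.

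Tap1 and Tap2 encode the chains of the peptide transporter, which works as a heterodimer (chr17:34324498-34334170 and chr17:34340472-34353266, both on the plus strand). Tap1 was measured at 4.05, 3.36 and 4.90 RPKM in ESCs and its EB values were 2.80, 2.88 and 2.94 RPKM. Tap2 was measured at 2.18, 2.09 and 1.92 RPKM in ESCs and its EB values were 1.79, 0.934 and 1.06 RPKM. The D0 libraries all lay above the D3 libraries for both genes. The ratio of Tap1 to Tap2 was 1.57 to 3.09, lowest in H2A.Z WT EBs and highest in the library labelled KD at D3.

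Psmb8 and Psmb9 encode catalytic subunits of the immunoproteasome (chr17:34334666-34338399, plus strand, and chr17:34318932-34324709, minus strand). Psmb9 was measured at 3.10, 4.30 and 3.77 RPKM in ESCs and its EB values were 3.56, 2.86 and 4.28 RPKM. Its level was 2.24% to 2.76% of that of Psmb6, the constitutive subunit that it replaces, in all 6 libraries. Psmb8 was measured at 0.742, 0.968 and 0.416 RPKM in ESCs and its EB values were 1.73, 0.504 and 0.649 RPKM. H2A.Z WT EBs were the highest, and 20 to 59 estimated reads lay behind these values.

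Nlrc5 encodes the class I transactivator (chr8:96996663-97051172, plus strand). It was listed at 0.0717, 0.181 and 0.113 RPKM in ESCs, and its EB values were 0.0484, 0.0538 and 0.0281 RPKM. Each value rests on 4 to 24 estimated reads. Its D0 values lay above its D3 values. The counting intervals of H2A.Z AP3 against either other line spanned 0 at both stages, although the 1.5-fold mark was passed.

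Comparing H2A.Z AP3 with H2A.Z WT asks what the divergent acidic patch of H2A.Z does to these genes. In ESCs B2m was 1.52-fold higher in H2A.Z AP3 (log2 0.60, counting interval 0.42 to 0.79), which is just past the 1.5-fold mark at log2 0.58. With a pseudocount of 1 RPKM in place of 0.001 it was 0.58 and no longer past the mark. The joint H2-D1 entry was higher by log2 0.76 (0.57 to 0.96), and H2-K1 by log2 0.23 (0.03 to 0.42). Tap1 and Psmb9, which share a promoter region, both had a log2 difference of 0.28. Psmb8 was lower by log2 -0.83, with a counting interval of -1.77 to 0.14.

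Among the 9 members 2 were past 1.5-fold higher in H2A.Z AP3 ESCs, B2m and Nlrc5, where 11.1% of all entries were. Psmb8 was past 1.5-fold lower, where 13.9% of entries were. Of the 7 members that averaged 1 RPKM or more over the 6 libraries (all but Psmb8 and Nlrc5) 1 was past 1.5-fold, against 12.3% of such entries. The members' median log2 difference was 0.23 and that of all entries was 0.00. The library labelled H2A.Z AP3 at D0 also had the highest sums of fibroblast markers (58.2 RPKM against 34.1 in H2A.Z WT, 7 of 10 past 1.5-fold higher) and of endoderm markers (119.0 against 35.9 RPKM, 7 of 10 higher). In bulk samples fewer cells of a type and less RNA per cell cannot be told apart, and the part of other cells in the B2m value was not tested.

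In EBs the direction of B2m was the opposite, 1.68-fold lower in H2A.Z AP3 (log2 -0.75, counting interval -0.92 to -0.58). Tap2 was lower by log2 -0.76 (-1.19 to -0.34) and Psmb8 by log2 -1.41 (-2.19 to -0.69). With a pseudocount of 1 RPKM Tap2 was at -0.44 and no longer past the mark. H2-K1 and H2-T23 had log2 differences of 0.29 and 0.34, in the other direction. Nlrc5 was past the mark as well, at log2 -0.77 from 4 and 7 estimated reads.

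In that comparison 4 of 9 members were past 1.5-fold lower, where 11.7% of all entries were, and none were past 1.5-fold higher, where 10.4% were. Of the 7 members averaging 1 RPKM or more 2 were past the mark, against 9.26% of such entries. The median over the 9 members was -0.46, that of the gene Tapbp, and over those 7 it was 0.07. Fibroblast markers summed to 12.5 RPKM in H2A.Z AP3 EBs and 15.9 in H2A.Z WT EBs, where Thy1 alone was at 3.56 and 9.19 RPKM, and 3 of 10 were past 1.5-fold higher and 1 lower, with a median log2 difference of 0.20. Endoderm markers summed to 187.4 and 161.8 RPKM, of which Dab2 made up 70.3 and 41.8 RPKM, and 1 of 10 was higher and 2 lower, with a median of -0.16.

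**Figure D3:**
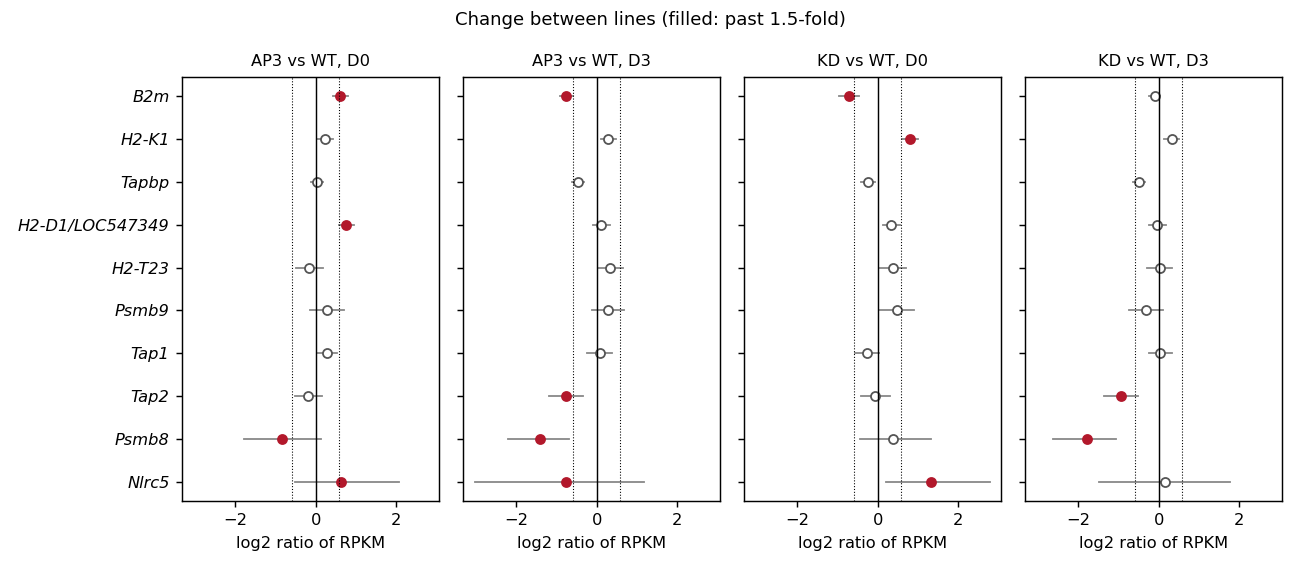
Log2 ratio of RPKM for each entry in the line named first over H2A.Z WT (points; filled, past 1.5-fold, which the dotted lines mark; bars, 95% counting intervals, which do not cover differences between cultures). B2m is at 0.60 in H2A.Z AP3 ESCs and at -0.75 in H2A.Z AP3 EBs, and Tap2 and Psmb8 are lower than in H2A.Z WT EBs in both other lines.

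Comparing the library labelled KD with H2A.Z WT is meant to ask about depletion without the mutant protein, although H2afz was not lower in it at D0. In ESCs H2-K1 was 1.75-fold higher in the former (log2 0.81, counting interval 0.61 to 1.01) while B2m was 1.64-fold lower (log2 -0.72, -0.96 to -0.46). Nlrc5 was higher by log2 1.33 on 24 and 8 estimated reads. The heavy chain and the light chain therefore lay on opposite sides of the mark in 1 pair of libraries. H2-T23 and the joint H2-D1 entry had log2 differences of 0.37 and 0.34, in the direction of H2-K1. Of 10 endoderm markers 4 were past 1.5-fold higher and 0 lower in the library labelled KD (summed 46.1 against 35.9 RPKM). Of 10 fibroblast markers 2 were higher and 2 lower (28.7 against 34.1 RPKM). Their part in these values was not tested.

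In these ESCs 2 of 9 members were past 1.5-fold higher (8.96% of all entries) and 1 was past 1.5-fold lower (10.7%). Of the 7 members averaging 1 RPKM or more 2 were past the mark, against 6.96% of such entries. In EBs Tap2 was lower by log2 -0.94 (-1.35 to -0.52) and Psmb8 by log2 -1.77 (-2.62 to -1.06) in the library labelled KD, and B2m had a log2 difference of -0.10. With a pseudocount of 1 RPKM Tap2 was at -0.53 and no longer past the mark. Here 2 of 9 were past 1.5-fold lower (11.3% of all entries) and none higher (9.41%), and of the 7 averaging 1 RPKM or more 1 was past the mark, Tap2, against 7.77% of such entries. In these EBs 8 of 10 endoderm markers were past 1.5-fold higher than in H2A.Z WT (summed 357.3 against 161.8 RPKM) and 7 of 10 fibroblast markers lower (9.08 against 15.9 RPKM), and their part in the Tap2 and Psmb8 values was not tested. The H2A.Z WT library is common to both line comparisons at each stage, so the lower Tap2 and Psmb8 in both are not separate observations.

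H2A.Z AP3 and the library labelled KD were also set against each other. In ESCs B2m was 2.50-fold higher in H2A.Z AP3 (log2 1.32, counting interval 1.11 to 1.53) and H2-K1 was lower by log2 -0.58, just short of the mark, and past it at -0.62 once the libraries were centred on their median ratio. Tap1 had a log2 difference of 0.54, while Psmb8 was lower by log2 -1.22 (-2.11 to -0.38). Past 1.5-fold, 1 of 9 members was higher (13.5% of all entries) and 2 were lower, Psmb8 and Nlrc5 (13.5%). Of the 7 members averaging 1 RPKM or more 1 was past the mark, against 16.6% of such entries. In EBs B2m was lower by log2 -0.64 (-0.81 to -0.48) in H2A.Z AP3 and Psmb9 had a log2 difference of 0.58, within the mark. There 2 of 9 were lower, B2m and Nlrc5 (11.1% of all entries), and none were higher (11.6%), and 1 of 7 averaging 1 RPKM or more was past the mark, against 10.6% of such entries. Markers of other cell types moved in these comparisons too. In H2A.Z AP3 ESCs 7 of 10 fibroblast markers (summed 58.2 against 28.7 RPKM) and 7 of 10 endoderm markers (119.0 against 46.1 RPKM) were past 1.5-fold higher than in the library labelled KD. In EBs 9 of 10 endoderm markers were lower (187.4 against 357.3 RPKM) and 6 of 10 fibroblast markers higher (12.5 against 9.08 RPKM), and their part in the B2m values was not tested.

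The stages were then compared within each line, to see how the class I genes moved as ESCs formed EBs. B2m was 1.92-fold higher at D3 than at D0 in H2A.Z WT (log2 0.94, counting interval 0.76 to 1.14) and 2.94-fold higher in the line labelled KD (log2 1.56, 1.34 to 1.77). In H2A.Z AP3 it was lower at D3 by log2 -0.41 (-0.57 to -0.24), within 1.5-fold. Endoderm markers were past 1.5-fold higher at D3 for 10 of 10 in H2A.Z WT (median log2 2.38), 10 of 10 in the line labelled KD (3.33) and 6 of 10 in H2A.Z AP3 (1.27), and fibroblast markers were lower for 7, 9 and 8 of 10. Their part in the B2m values was not tested. The joint H2-D1 entry was at log2 0.05, -0.33 and -0.61 in H2A.Z WT, KD and AP3, and H2-K1 at 0.17, -0.32 and 0.23.

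Tap1 was lower at D3 in all 3 lines, by log2 -0.53, -0.22 and -0.74 in H2A.Z WT, KD and AP3, and it was past 1.5-fold in H2A.Z AP3. Tap2 was lower by log2 -0.29, -1.16 and -0.86, past 1.5-fold in the lines labelled KD and AP3. With a pseudocount of 1 RPKM Tap1 and Tap2 in H2A.Z AP3 were at -0.58 and -0.51 and no longer past the mark. Psmb8 had log2 differences of 1.22, -0.94 and 0.64, past the mark in each line and not in 1 direction. In H2A.Z AP3 its counting interval spanned 0 (-0.27 to 1.59), and with a pseudocount of 0.1 RPKM it was at 0.54 and within the mark. Nlrc5 was lower by log2 -0.56, -1.73 and -1.97 on few reads.

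In H2A.Z WT 2 of 9 members were past 1.5-fold higher at D3, B2m and Psmb8 (14.1% of all entries), and none were lower (16.5%). In the line labelled KD 1 was higher (14.0%) and 4 were lower, Tap2, Psmb8, Psmb9 and Nlrc5 (16.2%). In H2A.Z AP3 1 was higher, Psmb8 (14.7%), and 3 were lower, Tap1, Tap2 and Nlrc5 (16.3%). Of the 7 averaging 1 RPKM or more, 1, 3 and 2 were past the mark in H2A.Z WT, KD and AP3, against 21.0%, 20.4% and 22.3% of such entries. The members' median log2 differences were 0.17, -0.34 and -0.15 in the 3 lines. Whether the D3 against D0 differences differ between lines was not tested, since that needs more than 1 library per condition.

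**Figure D4:**
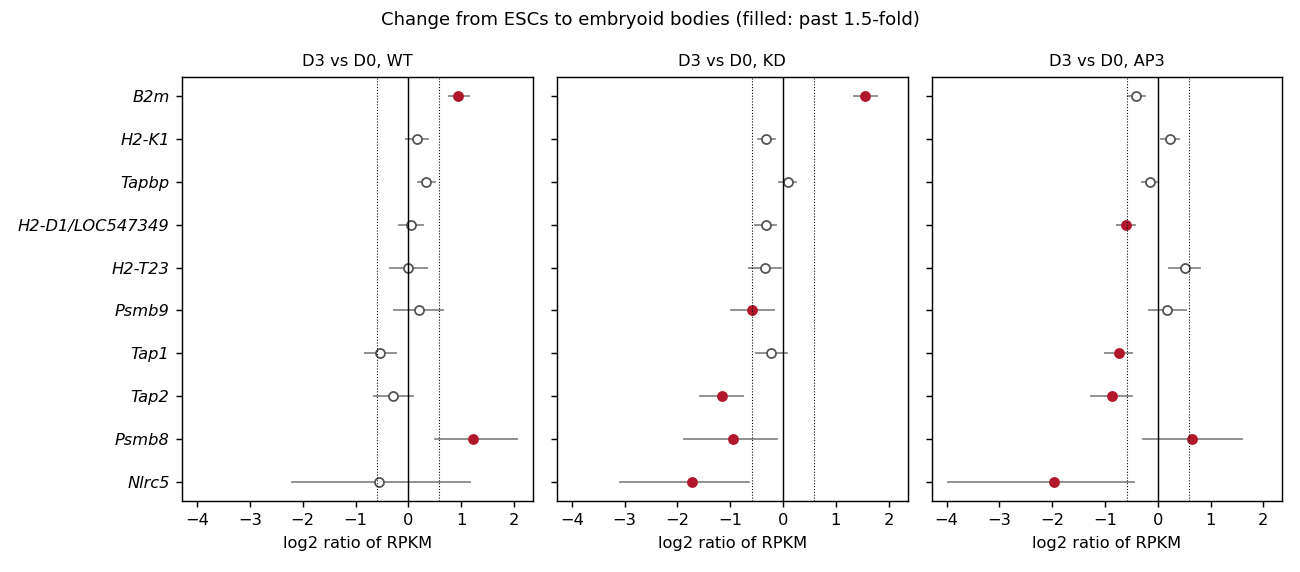
Log2 ratio of RPKM in EBs (D3) over ESCs (D0) within each line (points; filled, past 1.5-fold; bars, 95% counting intervals). B2m lies at 0.94 and 1.56 in the lines labelled WT and KD and at -0.41 in H2A.Z AP3, and Tap1 and Tap2 lie below 0 in all 3.

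A fit over the 6 libraries was used to set the differences against the spread that line and stage leave unexplained (limma, additive terms, 2 residual degrees of freedom, 11842 entries whose mean reached 1 RPKM). The fit assumes that a line differs by the same amount at both stages, and it was added after the values had been seen. It held 7 members, since Psmb8 and Nlrc5 were too low. For D3 against D0 10.6% of entries passed an adjusted p of 0.05, and none of the 7 members did. Tap2 was lower at D3 by log2 -0.77 (SE 0.27, limma adjusted p = 0.112) and Tap1 by log2 -0.50 (SE 0.18, limma adjusted p = 0.134), each in 3 of 3 lines, and both had an unadjusted p below 0.05. B2m was at log2 0.70 (SE 0.32, limma adjusted p = 0.212), higher in 2 of 3 lines. Without the H2A.Z AP3 line B2m was at log2 1.25 and passed, in a fit with 1 residual degree of freedom that called 15.4% of entries. The line left out is where B2m was lower at D3, so the lines kept already agreed and this call is no support. Without H2A.Z WT or without KD 2.93% and 5.91% of entries were called and no member was.

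Between lines none of the 7 members and 0% of entries passed, in each of the 3 pairs of lines, while 682, 303 and 892 of 11842 entries had an unadjusted p below 0.05 in AP3 against WT, KD against WT and AP3 against KD. For B2m, whose line differences point in opposite directions at the stages, AP3 against WT was at log2 -0.07 (SE 0.39, limma adjusted p = 0.997). H2-K1 was higher by log2 0.57 in the libraries labelled KD than in H2A.Z WT (SE 0.18, limma adjusted p = 1), the one member with an unadjusted p below 0.05 between lines.

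The members did not follow a common pattern across the 6 libraries. Over the 36 pairs of members, Pearson's r of log2(RPKM + 1) had a median of -0.02, and 18 pairs were positive and 18 negative. The highest was 0.74, between H2-K1 and H2-T23, and the lowest was -0.71, between H2-K1 and Tapbp. These values describe 6 libraries with different depths. Among 8232 genes averaging 5 RPKM or more, those most like B2m were Lonp2 (r = 0.996), Zfyve1 (r = 0.991) and Zfp260 (r = 0.990). Those most like H2-K1 were Odz3 (r = 0.932), Tmem109 (r = 0.928) and Camta1 (r = 0.926). With 6 points and so many genes, high values of r arise readily.

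The rest of the pathway was described from lists. Of 5 general loading factors the chaperones Calr (326.1 to 408.0 RPKM) and Canx (193.8 to 225.5 RPKM) and the oxidoreductase Pdia3 (143.7 to 219.0 RPKM) were abundant, while the tapasin relative Tapbpl was at 1.38 to 2.51 RPKM. The trimming peptidase Erap1 was at 0.911 to 1.23 RPKM in ESCs and 1.68 to 2.29 RPKM in EBs. At D3 against D0 Erap1 was past 1.5-fold higher in all 3 lines, Pdia3 in the line labelled KD and Tapbpl in H2A.Z AP3, so 1, 2 and 2 of 5 were higher where 14.1%, 14.0% and 14.7% of all entries were. None of the 5 was past 1.5-fold from H2A.Z WT in either other line at either stage. In those comparisons 8.96% to 11.1% of all entries were higher and 10.7% to 13.9% lower, so a count of 0 among 5 is near the background. The proteasome subunit Psmb10 and the activator subunits Psme1 and Psme2 stayed within 1.5-fold of H2A.Z WT in each comparison of lines. Beside the same shares of all entries, 0 among 3 is near the background too. At D3 against D0 Psme1 was past 1.5-fold higher in H2A.Z WT (50.4 against 32.2 RPKM, log2 0.65) and Psme2 in H2A.Z AP3 (48.4 against 29.5 RPKM, log2 0.72). So 1, 0 and 1 of 3 were higher in H2A.Z WT, KD and AP3, where 14.1%, 14.0% and 14.7% of all entries were.

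Of 27 other class I heavy chain names 22 were found, and they were at low levels, the highest being H2-M5 at 4.50 RPKM. In H2A.Z WT 9 of them were past 1.5-fold higher at D3 and 2 lower (14.1% and 16.5% of all entries), in the line labelled KD 6 were higher and 5 lower (14.0% and 16.2%), and in H2A.Z AP3 6 were higher and none lower (14.7% and 16.3%). Many of these calls rest on H2-M10 genes at or below 0.198 RPKM. Among the 9 that averaged 1 RPKM or more none was lower in any line. In H2A.Z WT 5 of the 9 were higher, H2-Q1, H2-Q2, H2-Q6, H2-Q7 and H2-Q8, genes of the Qa region. In the line labelled KD 2 were higher, H2-Q2 and H2-Q8, and in H2A.Z AP3 1 was, H2-T10. Among all entries with such averages 21.0%, 20.4% and 22.3% were past 1.5-fold either way in the 3 lines, so the last 2 counts are near or below the background. In H2A.Z AP3 EBs 4 of 22 were past 1.5-fold higher and 5 lower than in H2A.Z WT EBs (10.4% and 11.7% of all entries). The 4 higher were H2-M10 genes at or below 0.0395 RPKM. Of the 9 averaging 1 RPKM or more none was higher and 4 were lower, H2-Q2, H2-Q7, H2-Q8 and H2-Bl (9.26% of such entries either way), for example H2-Q2 at 1.25 against 2.41 RPKM. These genes belong to a multigene family, how much sequence they share was not measured here, and the authors' counting may split reads among them.

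Interferon-stimulated genes, which respond to signals that also act on class I genes, were set beside the members. Of 25 found, 14 were past 1.5-fold higher and 1 lower in H2A.Z AP3 ESCs than in H2A.Z WT ESCs (11.1% and 13.9% of all entries). Their median log2 difference was 0.82, beside 0.00 over all entries, and many were low in H2A.Z WT ESCs. Of the 12 that averaged 1 RPKM or more over the 6 libraries 5 were higher and none lower (12.3% of such entries either way), with a median of 0.44. Of those 5, 4 averaged under 1 RPKM without the H2A.Z AP3 ESC library, so the change itself admitted them and this count is no support. Ifit1, an antiviral RNA-binding protein, was at 4.24 against 1.38 RPKM (log2 1.61). The ubiquitin-like modifier Isg15 was at 2.35 against 0.809 RPKM (log2 1.54), and the chemokine Cxcl10 at 4.61 against 1.41 RPKM (log2 1.71). Usp18, which removes Isg15 from proteins, was at 1.82 against 0.372 RPKM.

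In H2A.Z AP3 ESCs 17 of the 25 reached 1 RPKM, and in H2A.Z WT ESCs 11 did, while 11802 of all entries did in each library. These counts rest on the same values as the calls above. In the library labelled KD at D0, 11 of 25 were past 1.5-fold lower than in H2A.Z WT and 1 higher (10.7% and 8.96% of all entries). Of the 12 averaging 1 RPKM or more over the 6 libraries 2 were lower and none higher (6.96% of such entries either way). Ifit1 was at 0.514 RPKM. In EBs Ifit1 was at 0.330 to 0.371 RPKM in the 3 lines and Usp18 was listed at 0. At D3 against D0 3 of the 25 were past 1.5-fold higher and 14 lower in H2A.Z WT (14.1% and 16.5% of all entries). In the line labelled KD 2 were higher and 10 lower (14.0% and 16.2%), and in H2A.Z AP3 1 and 20 (14.7% and 16.3%). B2m was higher at D3 in the first 2 lines. Of the 12 averaging 1 RPKM or more, 2, 2 and 1 were higher and 4, 2 and 7 lower (21.0%, 20.4% and 22.3% of such entries either way). Some of the 12 were admitted through H2A.Z AP3 ESCs. Between H2A.Z AP3 EBs and H2A.Z WT EBs 2 of 25 were past 1.5-fold higher and 9 lower (10.4% and 11.7% of all entries). Of the 12 averaging 1 RPKM or more 3 were lower and 1 higher (9.26% of such entries either way). Fibroblast markers were highest in H2A.Z AP3 ESCs too, as given above. Haematopoietic markers summed to 57.1 RPKM there and 10.8 to 26.9 RPKM in the other 5 libraries. Of these 10 markers 3 were past 1.5-fold higher than in H2A.Z WT ESCs and 3 lower, with Laptm5 at 53.1 against 23.5 RPKM and the myeloid receptor Cd14 at 1.66 against 0.590 RPKM. The defining marker Ptprc was at 0 against 0.0498 RPKM, and Emr1 was at 0 in all 6 libraries. The part of other cells in these values was not tested.

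**Figure D5:**
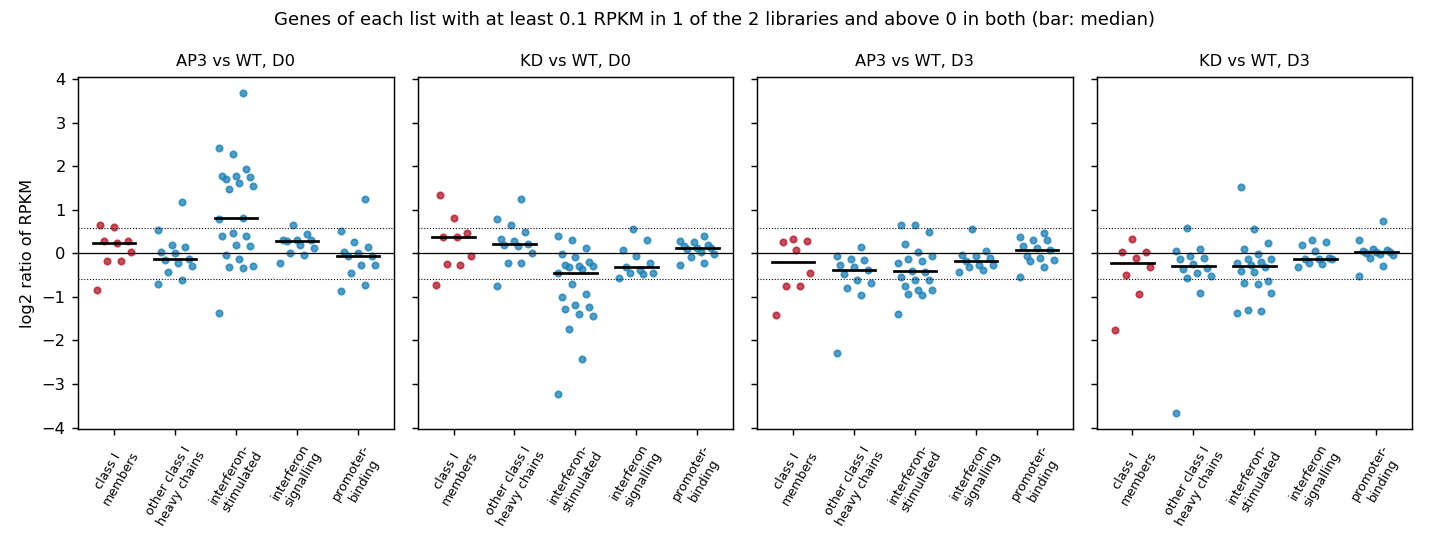
Log2 ratio of RPKM over H2A.Z WT for genes of each list that reach 0.1 RPKM in either library and lie above 0 in both (points; red, the class I members; blue, other lists; bars, medians; dotted lines, 1.5-fold). In H2A.Z AP3 ESCs 14 of 25 interferon-stimulated genes are past 1.5-fold higher, Mx1 among them, which is listed at 0 in H2A.Z WT ESCs and is not drawn there.

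Receptors and signal transducers of interferon were described in the same way. In H2A.Z AP3 ESCs 1 of 11 was past 1.5-fold higher than in H2A.Z WT (11.1% of all entries), the receptor subunit Ifngr1 at 3.28 against 2.07 RPKM. Against the library labelled KD 6 of 11 were higher (13.5% of all entries), among them the receptor subunit Ifnar2 at 10.4 against 5.20 RPKM and the transducer Stat2 at 13.4 against 8.38 RPKM. Socs3, a feedback inhibitor that LIF signalling induces, was lower in that comparison and was at 47.1 to 80.3 RPKM in ESCs and 5.65 to 7.42 RPKM in EBs.

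Factors that bind class I promoters were all measured. In H2A.Z AP3 ESCs the repressor-type factor Irf2 was past 1.5-fold higher than in H2A.Z WT ESCs, at 2.38 against 1.01 RPKM. Rfx5, the DNA-binding subunit of RFX, was lower at 2.66 against 4.85 RPKM, and the activator Irf1 was lower at 9.42 against 15.6 RPKM. The other 11 of 14 stayed within 1.5-fold. Among all entries 11.1% were past 1.5-fold higher and 13.9% lower. The class II transactivator Ciita was at or below 0.0834 RPKM in all 6 libraries, and class II genes at or below 1.93 RPKM.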

How the data were processed

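Poly(A) RNA was sequenced by single-end RNA-Seq in 6 libraries, 1 per line and stage. The authors aligned reads to mm9 with TopHat and Bowtie 0.12.7, allowing 2 mismatches and 20 locations, and deposited RPKM values, which Cufflinks 1.3.0 computed for each gene (versions from the submitters' processing notes). The deposited table also holds 6 columns of log2 ratios by the authors, which were not used.

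Differences were computed as log2((RPKM + 0.001)/(RPKM + 0.001)), and a gene was called when past 1.5-fold. With 1 library per group no test was possible within a stage. Over all 6 libraries, limma 3.58.1 was fitted to log2(RPKM + 0.001) with line and stage as additive terms, for entries with a mean of at least 1 RPKM, with Benjamini-Hochberg adjustment over all of them (added after seeing the data). In simulated data 200 of 200 4-fold stage changes were recovered among 11842 entries. Reads were estimated as RPKM times transcript length (GENCODE, NCBIM37) times a depth inferred from the steps between low values of 3696 genes with 1 transcript, with 95% Poisson intervals for counting error only. The table's loci merge neighbouring genes (B2m with Patl2 and Trim69), so GENCODE positions are given. Without a strand-specific count, reads in overlapping exons of Tap1 and Psmb9 cannot be told apart.

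The members and lists were chosen with earlier results of these data known. Genes named are the members, H2afz, list genes past 1.5-fold with at least 1 RPKM or defining their list, and the 3 genes most like B2m and H2-K1. Other genes named (cell type markers, neighbours of B2m, interferon genes, promoters of the motif search and Mx1) lie outside this rule and were chosen after their values were seen. On a simulated pair of libraries, 200 of 200 genes changed 3-fold were recovered among 21639. That simulation had counting error only, so it checks the code and not the power for smaller changes. Alternatives were other pseudocounts, a 1 RPKM filter (in either library compared or, added after seeing the data, on the mean of all 6), centring, a 2-fold mark, and summed entries. Python 3.11.15, pandas 2.3.3, numpy 2.4.6 and scipy 1.17.1 were used.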

Additional observations from a re-analysis of the deposited data

Results flagged for a closer look

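Several members were past 1.5-fold in opposite directions in comparisons of the same kind. None of these contrasts was tested, because each condition has 1 library. B2m was at log2 0.60 in H2A.Z AP3 over H2A.Z WT in ESCs and at log2 -0.75 in EBs. Over the library labelled KD it was at log2 1.32 in ESCs and at log2 -0.64 in EBs, with the same H2A.Z AP3 libraries in both. Of all 21639 entries 5.13% were past 1.5-fold in opposite directions at the 2 stages in the first of these comparisons and 5.35% in the second.

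Psmb8 at D3 over D0 was at log2 1.22 in H2A.Z WT and 0.64 in H2A.Z AP3, but at log2 -0.94 in the line labelled KD, on 20 to 59 estimated reads. The counting interval of the H2A.Z AP3 value spanned 0 (-0.27 to 1.59), and with a pseudocount of 0.1 RPKM it was at 0.54, no longer past 1.5-fold. Opposite calls were made for 3.64% of entries between the lines labelled H2A.Z WT and KD and for 4.28% between those labelled H2A.Z KD and AP3. Nlrc5 in H2A.Z AP3 over H2A.Z WT was at log2 0.64 in ESCs and -0.77 in EBs, on 4 to 24 estimated reads.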

How the results depend on the processing

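Replicate numbers pair no samples, as each group has 1 library, so line was the block in the fit of D3 against D0 over all 6 libraries. None of the members' 81 log2 differences changed sign beyond the mark under the settings tried. With a pseudocount of 0.1 RPKM 75 of 81 stayed on their side of 1.5-fold, with a pseudocount of 1 RPKM 64 did, after centring 79 did, with summed entries all 81 did, and the 66 left by a filter of 1 RPKM in either library all did, as did the 63 left by a filter on the mean of the 6 libraries (added after seeing the data). Median shifts between libraries were at most 0.048 (log2).

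The number of members past the mark, out of 9, moved as follows. For AP3 against WT ESCs it was 3, and it was 0 with a pseudocount of 1, 1 with the filter and 0 at 2-fold. In EBs it was 4, and 2 with a pseudocount of 1 and 1 at 2-fold. For the library labelled KD against WT it was 3 in ESCs and 1 at 2-fold, and in EBs it was 2, and 1 both with a pseudocount of 1 and at 2-fold. For AP3 against KD ESCs it was 3, and 1 both with a pseudocount of 1 and with the filter. In EBs it was 2, and 1 with a pseudocount of 0.1, of 1 or the filter, and 0 at 2-fold. From D0 to D3 it was 2 in H2A.Z WT and 1 at 2-fold. In the line labelled KD it was 5, and 2 with a pseudocount of 1 and 3 with the filter or at 2-fold. In H2A.Z AP3 it was 4, and 0 with a pseudocount of 1, 2 with the filter and 1 at 2-fold. With the filter on the mean it was 1 and 2 for AP3 against WT ESCs and EBs, 1 for KD against WT EBs, 1 and 1 for AP3 against KD, and 1, 3 and 2 from D0 to D3 in H2A.Z WT, KD and AP3. Either filter removes Psmb8, Nlrc5 or both, and the filter on either library admits Psmb8 through H2A.Z WT EBs, where it is high.

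In the fit of D3 against D0 0 of 7 members passed, also with pseudocounts of 0.1 and 1, and with a line left out 0 to 1 did. The 1 was B2m without the H2A.Z AP3 line, at log2 1.25. That is the line in which B2m was lower at D3, so this call is no support.

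The median log2 difference over members went, for AP3 against WT EBs, from -0.46 to -0.21 and -0.03 with pseudocounts of 0.1 and 1, to -0.20 with the filter or with the joint H2-D1 entry counted, and to 0.07 with the filter on the mean. For AP3 against WT ESCs it went from 0.23 to 0.05 with a pseudocount of 1, and for KD against WT ESCs from 0.37 to 0.14 with a pseudocount of 1 and -0.06 with the filter. For KD against WT EBs it went from -0.10 to -0.21 with the filter, and for AP3 against KD ESCs from -0.19 to -0.09 with a pseudocount of 1. From D0 to D3 in H2A.Z AP3 it went from -0.15 to -0.28 with the joint entry. Counting that entry was added after seeing the data. Depth limits Nlrc5 and Psmb8 most, and differences between cultures could not be measured.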

Other observations

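Outside the fixed lists, and chosen after its values were seen, the interferon gene Ifnb1 was listed at 0.171 RPKM in H2A.Z AP3 ESCs and at 0 in the other 5 libraries. That library was the deepest (31.2 M estimated reads, against 16.8 M in H2A.Z WT ESCs), and 1 read per kilobase is worth 0.0321 RPKM there. The Ifnb1 value is thus near the floor, and the reads behind it were not estimated. Ifng was listed at 0 in all 6. Patl2, whose entry has the same merged locus as B2m, was at 2.81, 2.00 and 4.73 RPKM in H2A.Z WT, KD and AP3 ESCs and at 10.2, 5.23 and 4.37 RPKM in the EBs, the same order of lines at D0 and D3 as B2m. Trim69, also of that locus, was at 0.307, 0.0348 and 0.0957 RPKM in the ESCs and 0.0320, 0.0536 and 0.0661 RPKM in the EBs. Its values were low, and its order of lines differed from that of B2m at both stages. Laptm5, which accounts for most of the summed haematopoietic markers, was at 53.1 RPKM in H2A.Z AP3 ESCs and 23.5 in H2A.Z WT ESCs.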
